A study of Homo sapiens with 8 samples.

Results

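NEUROG3, NEUROG1, NPBWR1 and OTUD7A are 4 genes of nerve, endocrine or brain tissue whose array probes gave bright signals in the RNA of a B-cell lymphoma line and whose ratio of signal in RNA pulled down with Argonaute 2 (Ago2) to signal in total RNA was among the lowest of all named genes. They are 4 of 16551 named genes with values on the array, and all 5 of their probes are described. The members were chosen by their low ratio of Ago2-IP signal to total RNA signal (IP/T) in the control cells, so that ratio is given here as a description and supports nothing. An IP/T below 1 means that a transcript took a lower place among all probes in the IP fraction than in the total (T) fraction.

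The study measured which transcripts are bound by Ago2 in the Hodgkin lymphoma line KM-H2, with and without a sponge meant to capture miR-155. It saw no clear loss of miR-155 targets from the IP fraction of sponge cells and describes these targets as very mildly depleted there. The study proposes that the sponge did not capture all of the miR-155. The EV cells had been transduced with the empty pMSCV-PIG vector and the miR-155-sp cells with the same vector carrying a miR-155 sponge, a transcript with binding sites that capture the miRNA, and in both cases the GFP+ cells had been sorted. From each population total RNA and RNA precipitated with an antibody against Ago2 were labelled once with Cy3 and once with Cy5 and hybridized to 4 Agilent arrays on 1 slide. There was thus 1 RNA sample in each of the 4 groups (total and Ago2-IP RNA of EV cells and of miR-155-sp cells), the Cy3 and Cy5 labellings are technical, and no test across samples was possible. Each array held the total and the IP RNA of 1 cell population, so a difference between EV and miR-155-sp cells and a difference between arrays cannot be told apart.

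Neurogenins are basic helix-loop-helix (bHLH) transcription factors that commit progenitor cells to a neuronal or endocrine fate. They bind DNA as dimers with E proteins such as TCF3, which are also needed in B cells. Ago2 carries miRNAs to partly complementary mRNAs, and the seed of the miRNA makes the main contact with the target. None of the 4 members is known as a gene of B cells.

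The mature miRNA is shown first because its capture by the sponge is what the study set out to change between the cell populations. It lies at chr21:25573983-25574006 on the plus strand (RefSeq, GRCh38.p14), and its capitals mark the seed, bases 2 to 8.
hsa-miR-155-5p: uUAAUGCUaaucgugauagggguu

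The 250 bases before the gene start are shown for the neurogenins, as the pair of paralogues among the members, from RefSeq (GRCh38.p14). The NEUROG3 stretch is chr10:69573423-69573672 and the NEUROG1 stretch is chr5:135535965-135536214, both on the minus strand and printed 5′ to 3′ with CpG dinucleotides in capitals.
NEUROG3: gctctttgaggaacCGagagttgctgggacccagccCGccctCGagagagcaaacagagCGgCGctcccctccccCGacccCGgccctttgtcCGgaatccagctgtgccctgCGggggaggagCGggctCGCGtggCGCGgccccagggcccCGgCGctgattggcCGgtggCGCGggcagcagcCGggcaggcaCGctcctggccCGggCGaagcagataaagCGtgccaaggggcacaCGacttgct
NEUROG1: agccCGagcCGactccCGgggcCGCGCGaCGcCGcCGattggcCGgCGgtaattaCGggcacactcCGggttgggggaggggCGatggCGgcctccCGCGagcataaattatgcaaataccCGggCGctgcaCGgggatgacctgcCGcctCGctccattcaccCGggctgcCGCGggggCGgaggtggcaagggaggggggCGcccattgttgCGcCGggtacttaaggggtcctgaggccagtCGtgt
Both stretches are rich in G and C. NEUROG3 has 72.0% GC and 25 CpG, and NEUROG1 has 70.4% GC and 30 CpG. Over the same 250 bases of 35116 RefSeq promoters the median was 58.0% GC and 11 CpG, 19.9% had at least 70.4% GC and 21.6% had at least 25 CpG. The motif CANNTG, searched on both strands because bHLH dimers bind such sites, had 1 match before NEUROG3 and 0 before NEUROG1, and 61.8% of all promoters had a match. No sequence is printed for NPBWR1 and OTUD7A.

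The signals of the 4 genes were bright in total RNA. In every array file each spot carries a flag that says whether its signal was well above background. Of the 5 member probes, 4 had this flag in all 8 channels, which was part of the choice of the members and is no result about them. Of all probes, 32.8% had it and agreed between labellings. No gene spot was saturated. In the Cy3 channels 58.9% to 61.9% of gene spots were well above background and in the Cy5 channels 38.8% to 43.4%. Among 153 negative-control spots per channel, whose sequences should bind no human transcript, the median processed signal (background-subtracted, dye-normalized, in arbitrary units) lay between 7.66 and 11.6. Of their 1224 readings 3 were well above background, and all 3 were outlier spots.

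NEUROG3, the neurogenin that starts the endocrine lineage of the pancreas, had the brightest of these signals relative to the other probes of its channel. Its processed signal in EV total RNA was 9617 in Cy3 and 11230 in Cy5, and in EV Ago2-IP RNA 1316 in Cy3 and 1584 in Cy5. In miR-155-sp total RNA it was 6923 in Cy3 and 7926 in Cy5, and in miR-155-sp Ago2-IP RNA 1245 in Cy3 and 1267 in Cy5. Every total RNA channel was thus higher than every IP channel, with no overlap. In EV cells the choice of the members by a low IP/T largely set this order, here and for the members below. How many of all probes show no such overlap was not counted. The total RNA signals were 688 to 1157 times the median of the negative controls of their channel and stood at percentiles 95.0 to 95.9 of all probes, and the IP signals stood at percentiles 83.4 to 85.2.

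NEUROG1, the paralogue that directs sensory and inner ear neurons, showed the same order. Its processed signal in EV total RNA was 4213 in Cy3 and 4725 in Cy5, and in EV Ago2-IP RNA 597 in Cy3 and 677 in Cy5. In miR-155-sp cells it was 2366 in Cy3 and 3660 in Cy5 for total RNA, and 603 in Cy3 and 491 in Cy5 for Ago2-IP RNA. The total and IP channels did not overlap. In total RNA NEUROG1 stood at percentiles 89.9 to 92.5 and in IP RNA at 75.6 to 77.4.

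NPBWR1, a G protein-coupled receptor for the neuropeptides B and W, was dimmer within its channels. Its processed signal in EV total RNA was 1137 in Cy3 and 1460 in Cy5, and in EV Ago2-IP RNA 175 in Cy3 and 186 in Cy5. In miR-155-sp cells it was 890 in Cy3 and 1173 in Cy5 for total RNA, and 181 in Cy3 and 185 in Cy5 for Ago2-IP RNA. Again no IP channel reached a total RNA channel. The flag for well above background rested on a small difference in the Cy5 IP channels, where the raw spot exceeded its local background by 13 units in EV and 11.5 units in miR-155-sp cells.

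OTUD7A encodes a deubiquitinase of the OTU family, known from brain, and is the only member with a second probe. Its first probe (A_23_P3413) had a processed signal of 1656 in Cy3 and 1455 in Cy5 in EV total RNA, and of 205 in Cy3 and 186 in Cy5 in EV Ago2-IP RNA. In miR-155-sp cells it had 1054 in Cy3 and 1296 in Cy5 in total RNA, and 227 in Cy3 and 168 in Cy5 in Ago2-IP RNA. Total and IP channels did not overlap, and the raw excess over local background in the Cy5 IP channels was 15 units in EV and 11.5 units in miR-155-sp cells.

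The second OTUD7A probe (A_24_P318400) was much dimmer within its channels. Its processed signal in EV cells was 88.4 in Cy3 and 39.6 in Cy5 for total RNA, and 38.0 in Cy3 and 33.4 in Cy5 for Ago2-IP RNA. In miR-155-sp cells it was 65.0 in Cy3 and 39.2 in Cy5 for total RNA, and 29.6 in Cy3 and 31.2 in Cy5 for Ago2-IP RNA. Its processed signal, too, was higher in every total channel than in every IP channel. However, it was well above background in the 4 Cy3 channels and in no Cy5 channel. In the Cy5 channels of miR-155-sp cells the raw excess over local background ran the other way, at -2 units in total and 4.5 units in IP RNA. In total RNA the second probe stood at percentiles 48.0 to 54.0 and the first probe at 83.7 to 85.6, both said to measure the same gene.

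**Figure D1:**
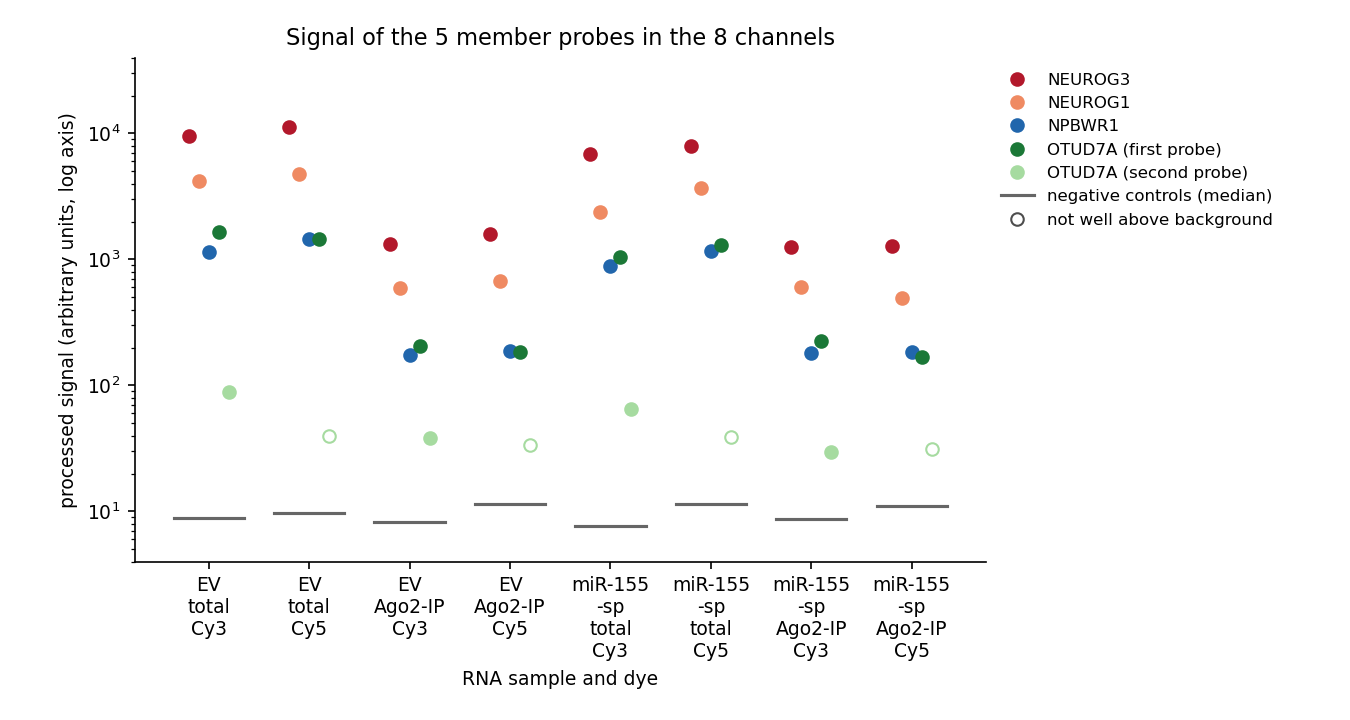
Processed signal (arbitrary units, log axis) of the 5 member probes in the 8 channels; filled points are well above background, open points are not, and grey lines give the median of the negative-control spots. For each of the 5 probes every total RNA channel lies above every IP channel, an order that the choice by a low EV IP/T largely set in EV cells. The share of all probes with this order was not counted. For the second OTUD7A probe no Cy5 channel was well above background, so its order is unclear there. The second OTUD7A probe lies at 88.4 or less in all channels (heights of different probes are not comparable as amounts).

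In EV cells 4 of the 5 member probes had an IP/T of 0.5 or less (depleted), where 12.9% of all retained probes did, and the choice of the members fixed this count. Retained probes are the 17912 whose signals exceeded background clearly in 4 or more channels and whose labellings lay within 2-fold of each other. Each ratio was measured in both dye orientations. The EV ratio of NEUROG3 was 0.129, from 0.153 with the IP in Cy5 and 0.108 with the IP in Cy3. For NEUROG1 the ratio was 0.136, from 0.152 and 0.121 in the same order. The orientations of each gene differed by less than the distance of either from 1.

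NPBWR1 had an EV IP/T of 0.134, from 0.162 with the IP in Cy5 and 0.111 with the IP in Cy3. The first OTUD7A probe had 0.120, from 0.110 and 0.131. Its orientations ran the other way from those of the 3 other genes, whose ratio was lower with the IP in Cy3. The second OTUD7A probe had 0.584, from 0.471 and 0.723, and so missed the limit of 0.5 in the mean. Each of its ratios has a Cy5 channel that was not well above background, and its mean was 0.893 with normexp, loess and Aquantile.

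Strong depletion (IP/T of 0.25 or less) was seen in EV cells for 118 (0.878%) of the 13432 retained probes above background in all 8 channels, the 4 members among them. Ordered from the lowest, OTUD7A ranked 1, NEUROG3 3, NPBWR1 6 and NEUROG1 7 of 13432. The order depended on the orientation. With the IP in Cy5 alone OTUD7A ranked 1, NEUROG1 9, NEUROG3 10 and NPBWR1 17, and with the IP in Cy3 alone NEUROG3 ranked 1, NPBWR1 2, NEUROG1 8 and OTUD7A 16. The log2 means of the 4 members lay closer together than the orientations of each of them did, so their order among themselves was not resolved.

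Of the named probes, the member with the highest ratio was NEUROG1 at 0.136, and the next probes outside the choice were ZSCAN10 at 0.140, a zinc finger factor of pluripotent cells, ENSA at 0.147, PCSK1N at 0.147, C3AR1 at 0.147 and ZNF575 at 0.152. TRIM35, at 0.121, lay inside the range of the members without being one of them. No gap in the ratios separated the members from these probes. PCSK1N is an inhibitor of prohormone convertase in neuroendocrine cells, and C3AR1 is a complement receptor of myeloid cells.

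The share of strongly depleted probes differed with brightness. Only probes well above background in all 8 channels, the IP channels among them, were counted. A dim probe with a low ratio can lose the flag in an IP channel and drop out, so this filter limits the share among dim probes. At a log2 total RNA signal of 8 or less 0 of 1025 probes in EV cells had an IP/T of 0.25 or less. Between 10 and 11, where NPBWR1 and OTUD7A lay at 10.19 and 10.47, 0.805% of 2361 probes did. Between 12 and 13, the range of NEUROG1 at 12.03, the share was 2.03% of 1135 probes, and between 13 and 14, the range of NEUROG3 at 13.31, it was 2.45% of 777 probes. Above 15 the share was lower again, at 1.21% of 743 probes.

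**Figure D2:**
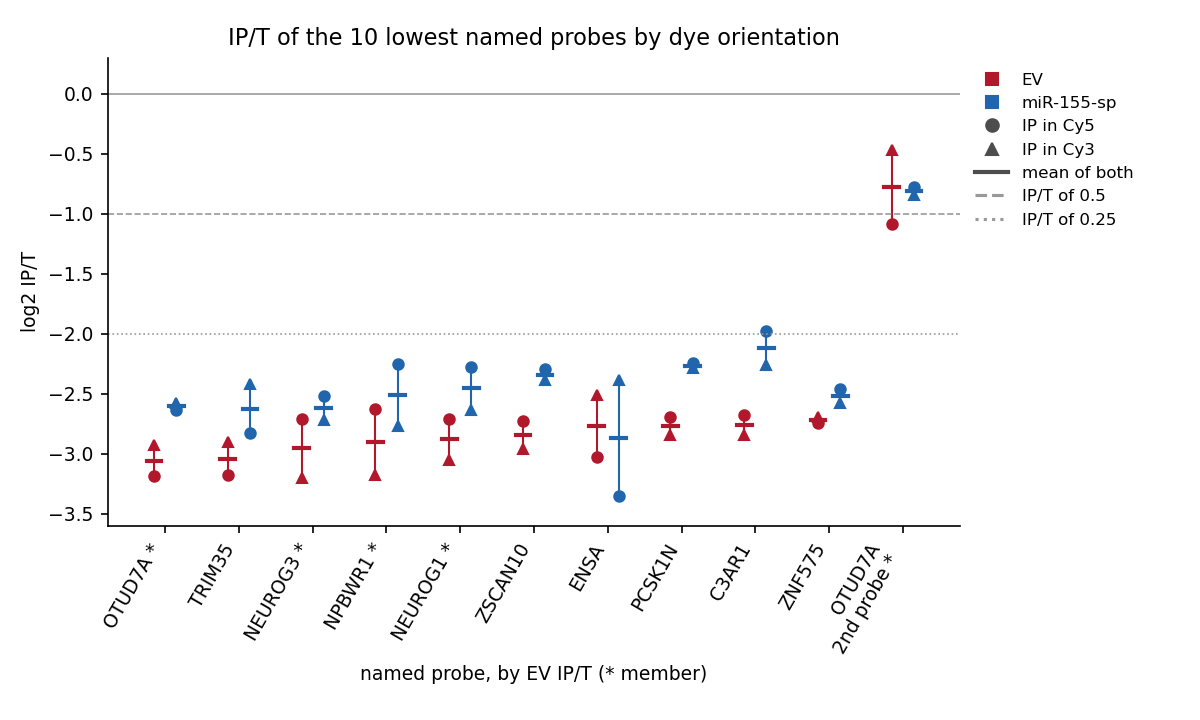
Log2 IP/T of the 10 named probes with the lowest EV ratio and of the second OTUD7A probe, in EV (red) and miR-155-sp cells (blue); circles have the IP in Cy5, triangles the IP in Cy3, and bars are the mean. The 4 members (asterisks) lie below an IP/T of 0.25 in both populations and both orientations, and the second OTUD7A probe lies at 0.584 and 0.570.

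The miR-155-sp cells gave a second pair of fractions, whose values were known when the members were chosen and are likewise given as a description. There 4 of the 5 member probes again had an IP/T of 0.5 or less, where 14.1% of all retained probes did, and the same 4 were at 0.25 or less, where 0.581% were. NEUROG3 had an IP/T of 0.163 in miR-155-sp cells, from 0.175 with the IP in Cy5 and 0.152 with the IP in Cy3. NEUROG1 had 0.182, from 0.207 and 0.161. The members thus stayed within the lowest 14 of 13432 probes, NEUROG3 at rank 5, OTUD7A at 6, NPBWR1 at 11 and NEUROG1 at 14.

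NPBWR1 had an IP/T of 0.176 in miR-155-sp cells, from 0.210 with the IP in Cy5 and 0.147 with the IP in Cy3. The first OTUD7A probe had 0.165, from 0.161 and 0.168. Its second probe had 0.570, from 0.584 and 0.557, close to its EV value. All 118 probes that were at 0.25 or less in EV cells were at 0.5 or less in miR-155-sp cells, and 63 of them were again at 0.25 or less.

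The settings with normexp moved the IP/T of the 4 bright member probes further than any other setting. With normexp (a model-based background correction, offset 50), loess and Aquantile normalization, the EV IP/T was 0.203 for NEUROG3, 0.249 for NEUROG1, 0.404 for NPBWR1 and 0.363 for the first OTUD7A probe. In miR-155-sp cells the same setting gave 0.238, 0.320, 0.472 and 0.431. All 4 remained at 0.5 or less, where 1.65% of retained probes did so in EV cells under this setting. The ranks moved too, to 5 for NEUROG3, 33 for NEUROG1, 116 for OTUD7A and 156 for NPBWR1 of 13378 probes. NPBWR1 and OTUD7A, which of these 4 had the smallest excess over local background in the IP channels, moved most. The background correction, the offset and the normalization of this setting were not tested apart.

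**Figure D3:**
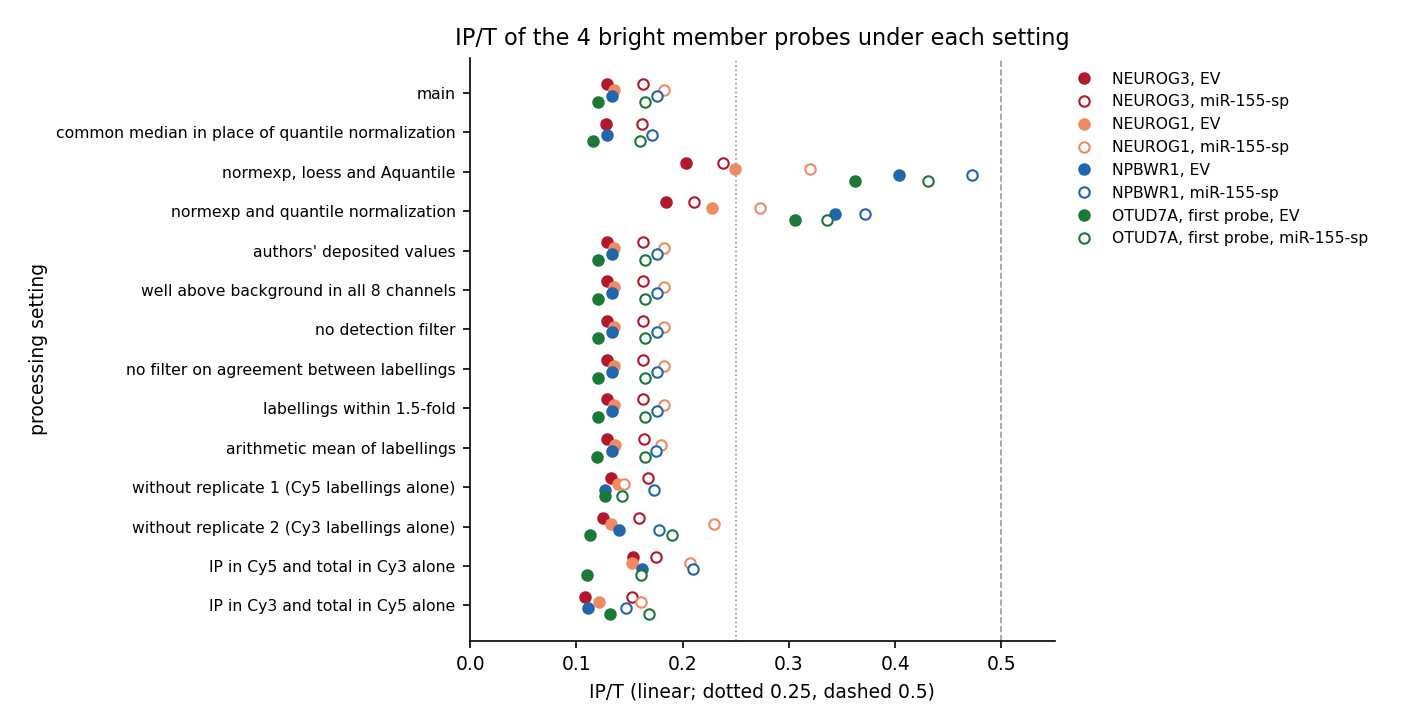
IP/T (linear axis) of the 4 member probes that were well above background in all channels, in EV (filled) and miR-155-sp cells (open), under each processing setting; the dotted line is 0.25 and the dashed line 0.5. All points lie at 0.472 or less, and the points to the right of 0.25 come from both settings with normexp (NEUROG1 has no point under the common median, where it failed the filter on labellings).

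No member probe differed 2-fold between the cell populations. In IP/T 0 of 5 did, beside 0.486% of retained probes, and in total RNA 0 of 5 did, beside 0.0558%. With shares this low, a count of 0 among 5 probes cannot show that the members changed little. All 4 bright member probes had a higher IP/T in miR-155-sp cells, by 0.34 to 0.46 in log2, and the second OTUD7A probe was at -0.033. Over all retained probes the median was -0.0025. The choice of the members sets part of this shift, as described below. The log2 IP/T of miR-155-sp cells minus that of EV cells was 0.34 for NEUROG3 (0.19 with the IP in Cy5 and 0.49 with the IP in Cy3). It was 0.43 for NEUROG1 (0.44 and 0.41). Both orientations were thus above 0 for both neurogenins.

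For NPBWR1 the log2 difference of IP/T was 0.39 (0.38 and 0.41), and for the first OTUD7A probe it was 0.46 (0.55 and 0.36). The second OTUD7A probe had -0.033 (0.31 and -0.38), with orientations of opposite sign. Higher in both orientations were 4 of the 5 member probes and 31.7% of all probes above background in all channels. As the members were taken from the low end of the EV ratios, part of a higher ratio in the other cells is set by the choice. Of the 118 probes at 0.25 or less in EV cells 82.2% were likewise higher in both orientations, with a median log2 difference of 0.34 (central 90% of these probes from -0.038 to 0.67), and each of the 4 members lay inside that range. Among the 78 probes chosen instead by 0.25 or less in miR-155-sp cells, the median was 0.19.

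The part of each fraction in this difference varied between the members. The labellings had opposite signs for NEUROG1 in IP RNA and for the first OTUD7A probe in total RNA. In total RNA the log2 difference, miR-155-sp minus EV, was -0.26 for NEUROG3 (-0.19 in Cy3 and -0.34 in Cy5) and -0.35 for NEUROG1 (-0.54 and -0.16). In IP RNA it was 0.079 for NEUROG3 (0.15 and 0.0049) and 0.075 for NEUROG1 (0.25 and -0.10). In the mean the neurogenins thus differed mainly in total RNA, although in Cy3 the parts of NEUROG3 were close (-0.19 and 0.15). For NPBWR1 the total RNA difference was -0.047 (-0.014 in Cy3 and -0.080 in Cy5) and the IP difference 0.35 (0.33 and 0.36). For the first OTUD7A probe these were -0.13 (-0.32 and 0.064) and 0.33 (0.42 and 0.23). In the mean both of these genes thus differed mainly in the IP fraction, although in Cy3 the OTUD7A parts were close (-0.32 and 0.42). Over the 118 probes at an EV IP/T of 0.25 or less, the median log2 differences were -0.15 in total and 0.19 in IP RNA. Total RNA was lower in both labellings for 3 of the 5 member probes and 33.5% of all probes above background in all channels, and IP RNA was higher in both labellings for 3 of 5 and 32.0%.

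Over the 8 channels the 4 members had nearly the same profile. After each probe was centred on its own mean log2 signal, the members lay 0.090 (NEUROG3) to 0.13 (OTUD7A) from their common mean profile (root mean square, log2 units), and pairs of members lay 0.15 to 0.21 apart. The most similar pair was NEUROG3 with NPBWR1 (0.15), and the least similar was NPBWR1 with OTUD7A (0.21). The 5 other named probes closest to the mean profile were ZSCAN10 (0.11), ZNF575 (0.13), POU3F3 (0.17), IER5 (0.17) and PCSK1N (0.18). The 8 channels come from 4 RNA samples and the likeness follows largely from the shared low IP/T. POU3F3 is a POU factor of the brain and IER5 an immediate early gene.

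Other probes of the same gene were the nearest thing to a second measurement. NEUROG3, NEUROG1 and NPBWR1 have 1 probe each, so their signals could not be set beside another. In EV cells 55 named genes had a probe at an IP/T of 0.25 or less, and 14 of these genes had in all 16 other retained probes. Of the 16, 7 (43.8%) were at 0.5 or less, 1 (6.25%) at 0.25 or less and 2 above 1, with a median IP/T of 0.571. At the opposite end, 433 genes had a probe at an IP/T of 4 or more, and of the 221 other retained probes of such genes 87.3% were at 2 or more and 56.6% at 4 or more. Over all retained probes 12.9% were at 0.5 or less and 14.8% at 2 or more, and the share at 4 or more was not counted. Among other probes above background in all channels, 5 of 11 were at 0.5 or less and 108 of 133 at 2 or more.

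For OTUD7A the lowest probe was at 0.120 and the other, whose Cy5 channels were not well above background, at 0.584. TRIM35 had 0.121 with its lowest probe and 0.719 with another, which was also well above background in all 8 channels. IER5 had 0.159 and 1.64, on opposite sides of 1, again with both probes above background in all channels. ENSA, with 0.147 and 0.210, was the gene whose other probe was also at 0.25 or less. The other probes of PRR7 (0.275 and 0.407), BAX (0.334), CKB (0.416) and H2AC21 (0.465) were at 0.5 or less. PCSK1N had 0.147 and 0.454, and ZNF575 0.152 and 0.687, with the other probe above background in 6 and 5 channels. These genes were taken up here after their values were seen. Which transcripts or isoforms the probes bind was not tested, and probe sequences were not used here.

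**Figure D4:**
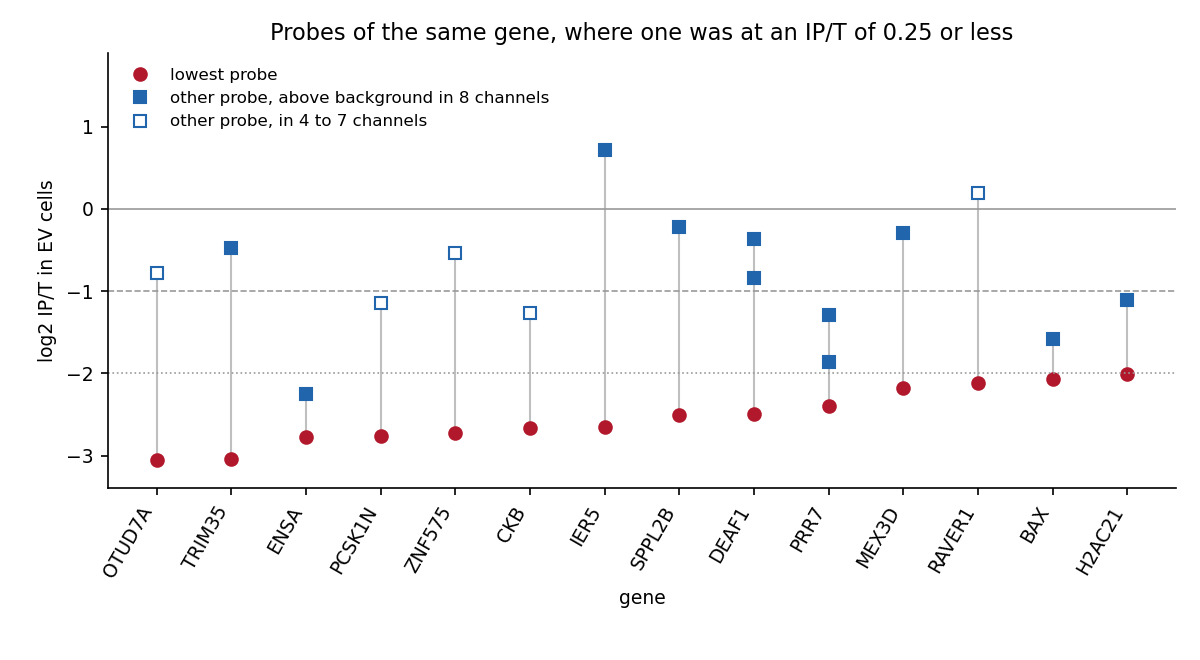
Log2 IP/T in EV cells of the lowest probe (red) and of the other retained probes (blue; open where they were well above background in 4 to 7 channels) for the 14 genes that had a probe at 0.25 or less and another retained probe. Only the other probe of ENSA lies below the dotted line at 0.25, and those of IER5 and RAVER1 lie above 1.

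The relatives of the neurogenins were mostly dark. Of 25 probes for 20 neurogenin-related bHLH factors, 15 were not well above background in any channel and 5 were retained, where 43.7% of all probes were. NEUROD1, a direct target of NEUROG3 and NEUROG1, had no channel above background, with processed signals of 7.96 to 11.4. Of the 5 retained probes 2 were depleted in EV cells, BHLHE23 at an IP/T of 0.232 and NEUROD2 at 0.305, with a median log2 IP/T of -0.17 beside -0.24 over all retained probes. This median of few probes ranged from -1.71 to 0.0029 over the processing settings. In miR-155-sp cells NEUROD2 was at 0.580. For this list and those below, the shares over all retained probes in EV cells were 12.9% depleted and 14.8% enriched.

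NEUROG2, the remaining neurogenin, ran the other way. Its processed signal in EV cells was 148 in Cy3 and 111 in Cy5 for total RNA, and 851 in Cy3 and 747 in Cy5 for Ago2-IP RNA. In miR-155-sp cells it was 120 in Cy3 and 117 in Cy5 for total RNA, and 640 in Cy3 and 547 in Cy5 for Ago2-IP RNA. Its IP channels were all above its total channels, which were well above background in Cy3 but not in Cy5. The IP/T was 6.02 in EV cells (7.01 with the IP in Cy3 and 5.17 with the IP in Cy5) and 4.74 in miR-155-sp cells. As the Cy5 total signal was not well above background, the ratio with the IP in Cy3 and the mean rest on a channel without a clear signal.

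The listed bHLH partners and inhibitors were measured well. Of 21 probes for 15 such genes 14 were retained, with a median EV log2 IP/T of -0.070, and 2 were depleted and 2 enriched (IP/T of 2 or more, as for 14.8% of retained probes). Both probes of the E protein TCF3 were above background in all channels, at an EV log2 IP/T of -0.15 and 0.055, and so was TCF4 at 1.39. HES7 (-1.65) and HES6 (-1.25) were depleted. HES1 was enriched with 1 retained probe (1.30) and not with the other (0.42), which was above background in 7 channels.

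Genes of the tissues in which the members act gave few signals. Of 28 probes for 24 pancreatic endocrine genes 6 (21.4%) were retained, with 2 depleted and 1 enriched and a median EV log2 IP/T of 0.19 (-0.59 to 0.50 over the processing settings). NKX2-2 and PDX1, factors of the islet lineage, had no channel above background, and PAX6 had 4. The islet peptide IAPP (-1.45) and the beta cell factor MAFA (-1.10) were depleted, and ISL1 (2.08) was enriched. Of 33 probes for 25 neuronal genes 7 (21.2%) were retained, with 1 depleted and 3 enriched and a median of 0.52. PHOX2A (-1.32) was depleted, while both probes of NEFL, a neurofilament, were enriched (3.17 and 3.84). DLL1, the Notch ligand that neurogenins switch on, had no channel above background.

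For NPBWR1, neither its ligand NPB nor its paralogue NPBWR2 was measured well, with 0 and 3 channels above background. Of 22 probes for 17 genes of the neuropeptide B/W system and related receptors 4 (18.2%) were retained. In EV cells 3 of these 4 were depleted, beside 12.9% of all retained probes, and none was enriched. The depleted were the kisspeptin receptor KISS1R at an IP/T of 0.235, the galanin receptor GALR3 at 0.345 and the somatostatin receptor SSTR3 at 0.366. The list's median EV log2 IP/T was -1.49, and it ranged from -1.85 to -0.014 over the processing settings. In miR-155-sp cells KISS1R was at 0.272, GALR3 at 0.413 and SSTR3 at 0.518.

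For OTUD7A, the other OTU deubiquitinases showed no depletion. Of 24 probes for 13 genes 17 (70.8%) were retained, with 0 depleted and 5 enriched in EV cells and a median EV log2 IP/T of 0.20. The paralogue OTUD7B had an IP/T of 0.858 with a probe above background in 6 channels and of 0.627 with a probe above background in 4. The lowest among those measured in all channels was OTUD5 at a log2 IP/T of -0.80. TNFAIP3, a brake on NF-kB signalling that is often lost in Hodgkin lymphoma, was among the enriched (2.53).

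NEUROG3, NEUROG1 and NPBWR1 belong to genes whose coding sequence lies in a single exon, and such genes were therefore also described. Of 67 probes for 45 further genes of this kind 30 (44.8%) were retained. Over all retained probes 12.9% were depleted and 14.8% enriched in EV cells, with a median log2 IP/T of -0.24. Of the 30 listed probes 9 (30.0%) were depleted and 4 enriched, with a median of -0.058. The depleted included the neural factors POU3F3 (-2.72), SOX1 (-2.44), SOX3 (-2.27) and FOXB1 (-2.22) and the myeloid factor CEBPA (-1.76). CEBPB (2.12), another factor of that family, was enriched. The list thus held values from both ends.

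**Figure D5:**
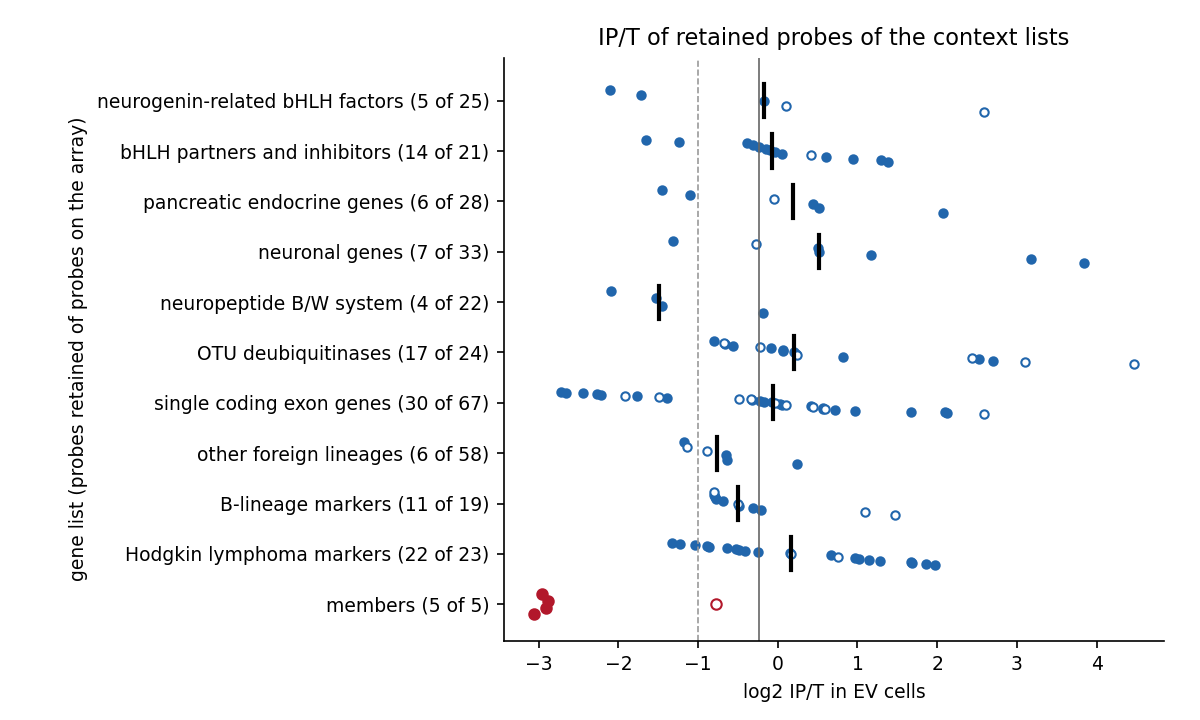
Log2 IP/T in EV cells of the retained probes of 10 gene lists and of the members (bottom, red); filled points were well above background in all 8 channels, black bars are list medians, the grey line is the median of all retained probes (-0.24) and the dashed line an IP/T of 0.5. The 4 bright member probes lie left of every point of the lists, which the choice of the members by a low EV IP/T largely set. NEUROG2 is the open point at 2.59 in the top list.

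As a check of the cells, markers of their own lineage and of foreign tissues were read in the same channels. Of 23 probes for 16 genes known from Hodgkin and Reed-Sternberg cells 22 (95.7%) were retained, with 3 depleted and 7 enriched and a median EV log2 IP/T of 0.16. Of 19 probes for 17 B-lineage genes 11 (57.9%) were retained, with 0 depleted and 2 enriched and a median of -0.50. CD79A, CD74, CD40, SPIB, CIITA and HLA-DRA were above background in all channels, while PAX5, a defining factor of B cells, was so in none and MS4A1 in 1. Loss of much of the B-cell programme is a known feature of Hodgkin lymphoma. Whether the PAX5 and MS4A1 values belong to it was not tested.

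Of 58 probes for 44 genes of liver, muscle, testis, skin, eye, lung, kidney, pituitary and exocrine pancreas 6 (10.3%) were retained, with 2 depleted and 0 enriched and a median EV log2 IP/T of -0.77 (-1.18 to 0.24 over the processing settings). Among these, MYOD1, the bHLH factor of muscle, was at -1.18. Most probes of genes foreign to the lineage were thus not retained. The 4 members came from probes above background in all channels, so their own brightness was part of the choice and is not set against this list. For the members the label as lineage-foreign transcripts rests on what is known of these genes. Whether their signals come from mRNA of the named genes was not tested, and the lists of neighbouring genes gave both dark and bright probes. Of the probes for neurogenin-related factors 15 of 25 were above background in no channel and 3 in all 8, and of those for pancreatic endocrine genes 14 of 28 in no channel and 5 in all 8. Of the probes for neuronal genes 16 of 33 were above background in no channel and 6 in all 8.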

How the data were processed

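Gene expression was measured on 2-color Agilent 44k arrays. Per the file headers, the authors made the spot intensity values with Agilent Feature Extraction 10.7.3.1 (10.5.1.1 per the submitters' processing notes), with background subtraction and dye normalization inside each array. A table of log2 values was deposited too, which the methods describe as quantile-normalized and filtered for detected probes with like labellings. These hold 16065 probes, of which 16057 were retained here, with a median absolute difference of 0.0006. They hold 4 of the 5 member probes, all but the second OTUD7A probe.

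For a sample, the channel of its own RNA was read. Control spots and outlier spots were left out, spots of a probe were averaged, and the log2 processed signals of 40981 probes were quantile-normalized over the 8 channels. Probes well above background in at least 4 channels, with all labellings within 2-fold, were retained. The labellings were averaged as log2 values, and log2 IP/T is IP minus total. A ratio so made is relative to all probes and sets aside any overall difference between fractions. Signals near background compress or inflate ratios. Precision is limited by the number of arrays.

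Probes were named through accessions in a RefSeq gene table (GRCh38.p14), which named 23958 of 41000 probes. As the array design used hg18, no gene coordinates are given.

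The members and gene lists were chosen with earlier results of these data known. The genes named were all member probes, the 10 named probes with the lowest EV IP/T, the 5 probes most like the members, and from each list up to 4 genes at each end, some of which are not reported here. Others were chosen after their values were seen (NEUROG2, OTUD7B, NEUROD1, NKX2-2, PDX1, PAX6, DLL1, NPB, NPBWR2, PAX5 and MS4A1 among them). Counts past a fixed ratio are given beside the share of all probes in place of tests. Normexp was run with limma 3.58.1 in R 4.3.3, other steps in Python 3.11.15 with numpy 2.4.6, pandas 2.3.3 and matplotlib 3.10.9. The code was tested on simulated data.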

Additional observations from a re-analysis of the deposited data

How the results depend on the processing

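Over the 13 alternatives, 3 to 5 member probes were depleted in EV cells and 3 to 5 in miR-155-sp cells, beside 4, and 0 changed 2-fold in IP/T or in total RNA. The count was 3 in both populations with channels set to a common median, where NEUROG1 was not retained. It was 5 in both with the Cy3 labellings alone, and in EV cells with the IP in Cy5 alone, where the second OTUD7A probe fell below 0.5. With the Cy5 labellings alone (without replicate 1) and with the Cy3 labellings alone (without replicate 2), the EV IP/T ranged from 0.113 to 0.141 over the 4 bright member probes, and the miR-155-sp IP/T from 0.143 to 0.230. The second OTUD7A probe was at 0.431 with the Cy3 labellings alone, and at 0.893 in EV and 1.07 in miR-155-sp cells with normexp, loess and Aquantile. Normexp adds an offset of 50 to every signal before the logarithm. With normexp, loess and Aquantile the IP/T of all 5 member probes was closer to 1. The parts of this setting were not tested apart. Under that setting the share of depleted probes in EV cells was 1.65%, beside 12.9%. With normexp and quantile normalization the EV IP/T was 0.184 for NEUROG3, 0.228 for NEUROG1, 0.343 for NPBWR1 and 0.306 for OTUD7A. The log2 difference of IP/T between populations was above 0 for these 4 under every alternative that retained them, from 0.058 (NEUROG1, Cy5 labellings alone) to 0.79 (NEUROG1, Cy3 labellings alone). The OTUD7A difference in total RNA was above 0 with the Cy5 total labelling. No paired analysis was possible because each group is 1 RNA sample and the replicate numbers 1 and 2 stand for its Cy3 and Cy5 labelling, while the ratios by dye orientation already set IP against total RNA of the same array.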
